A study of Homo sapiens with 4 samples.

Results

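The genes described here are 43 members of the NRF2 response and of the cell's redox machinery, chosen by name from a list and matched by symbol to the 58884 Ensembl genes of the deposited table. All 43 were found. They cover the transcription factor and its inhibitor, heme and iron handling, glutathione synthesis, the thioredoxin system, glutathione transferases, peroxide and superoxide removal, NADPH supply, carbonyl reduction and export of conjugates. RNA sequencing measured them in 4 libraries from 2 established human thyroid cancer cell lines: 8505C cells, an anaplastic carcinoma line, transfected to overexpress CRABP1 or given empty vector, and FTC-133 cells, a follicular carcinoma line, with the same pair of vectors. CRABP1 is a cytoplasmic protein that binds retinoic acid. The labels do not state whether the transfected cells were pools or clones, nor how many cultures stand behind a library.

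Each of the 4 groups held 1 library, so a ratio of CRABP1 over vector within a line has no replicate and no test. The intervals given with ratios are 95% Clopper-Pearson intervals from recovered reads and cover counting error only. About 19304250 and 19174557 reads lay behind 8505C with CRABP1 and with vector, and 20309248 and 20331464 behind FTC-133 with CRABP1 and with vector. CRABP1 itself was at 537 TPM (transcript abundance scaled to a fixed library total) with its vector and 0 with empty vector in 8505C, and at 385 and 0 TPM in FTC-133, the zeros leaving room for at most 0.594 TPM in 8505C and 0.555 TPM in FTC-133. PAX8, a thyroid transcription factor, was at 0.161 and 0.240 TPM in 8505C and at 143 and 100 TPM in FTC-133 (CRABP1 and vector). NKX2-1, another such factor, was at 113 and 118 TPM in 8505C and at 17.7 and 44.7 TPM in FTC-133. The thyroid genes TG and SLC5A5 stayed below 1 TPM in all 4 libraries. Leukocyte markers summed to between 0.105 and 0.263 TPM and hepatocyte markers to between 0.188 and 1.62 TPM. Fibroblast markers differed more: they summed to 9.73 and 4.57 TPM in 8505C and to 367 and 637 TPM in FTC-133 (CRABP1 and vector). Most of the FTC-133 sum came from the collagen genes COL1A1 and COL1A2, and most of the 8505C sum from LUM and DCN. LUM was still lower in 8505C, at 6.42 and 1.99 TPM, than in FTC-133, at 36.4 and 35.3 TPM. DCN went the other way, at 2.45 and 1.21 TPM in 8505C and at 0.332 and 0.278 TPM in FTC-133. Of the 5 markers, 4 were over 1 TPM in some library and PDGFRA was at most 0.212 TPM. Endothelial markers summed to 100.4 and 108 TPM in 8505C and to 5.02 and 4.61 TPM in FTC-133, with CDH5 at 97.9 and 103 TPM in 8505C and at 0.125 and 0 TPM in FTC-133. PECAM1 was also higher in 8505C. KDR went the other way, at 0.210 and 0.719 TPM in 8505C and at 3.18 and 2.04 TPM in FTC-133, and so did VWF, below 1 TPM throughout. Epithelial markers summed to 1365 and 1604 TPM in 8505C and to 169 and 171 TPM in FTC-133. Most of both sums came from the keratins KRT8 and KRT18. EPCAM went the other way, at 0.235 and 0.546 TPM in 8505C and at 5.87 and 6.13 TPM in FTC-133, and KRT19 and CDH1 were also lower in 8505C. The part of these markers in the differences described below was not tested.

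NRF2, encoded by NFE2L2, is a transcription factor that KEAP1 marks for degradation in unstressed cells. Oxidants and electrophiles modify cysteines of KEAP1, NRF2 then accumulates and binds antioxidant response elements together with small MAF proteins, and genes for glutathione synthesis, quinone reduction, heme breakdown and NADPH supply are transcribed. Because this control acts on the protein, the RNA level of NFE2L2 is not a measure of NRF2 activity. Thyroid follicular cells make hydrogen peroxide for hormone synthesis and carry strong peroxide-removing systems.

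The antioxidant response element was searched as TGACNNNGC on both strands of the 250 bases before each RefSeq gene start (GRCh38.p14). Of 43 windows for 33 members, 10 windows of 9 members held a match (23.3%), against 10.9% of all 35116 windows. The other 10 members, HMOX1 and AKR1B10 among them, had no window. Stretches of 5 of these 9 members are shown along the gene's own strand, with the match in capitals. The matches of GSTA4, GPX2, KEAP1 and PGD, whose RNA is also described below, are not shown. A match read on the opposite strand appears as its reverse complement.
GCLM, chr1:93909436-93909484, minus strand, match 34 bases before the start: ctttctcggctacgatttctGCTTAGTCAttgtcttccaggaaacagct
ME1, chr6:83431160-83431208, minus strand, match 137 bases before the start: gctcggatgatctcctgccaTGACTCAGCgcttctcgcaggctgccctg
TXNRD1, chr12:104215660-104215708, plus strand, upstream start, match 99 bases before it: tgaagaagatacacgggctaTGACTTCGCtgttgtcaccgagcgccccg
TXNRD1, chr12:104286910-104286958, plus strand, downstream start, match 102 bases before it: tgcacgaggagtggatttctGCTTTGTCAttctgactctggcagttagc
IDH1, chr2:208255186-208255234, minus strand, match 143 bases before the start: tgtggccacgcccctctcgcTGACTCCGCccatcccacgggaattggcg
GSTP1, chr11:67583726-67583774, plus strand, match 66 bases before the start: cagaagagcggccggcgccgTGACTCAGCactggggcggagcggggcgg
The matches of ME1 and GSTP1 are among 2 of the 11 member matches that also hold the AP-1 motif TGANTCA. A match describes letters only and is not evidence that a factor binds there.

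The members were expressed in both lines over a wide range of levels. With CRABP1 38 and with vector 40 of the 43 were at 1 TPM or more in 8505C, and 42 and 43 in FTC-133. FTL, the ferritin light chain, was the most abundant in every library. Together the 43 genes held 0.699% and 0.673% of the TPM of 8505C with CRABP1 and with vector, and 1.15% and 1.08% of FTC-133 with CRABP1 and with vector.

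**Figure D1:**
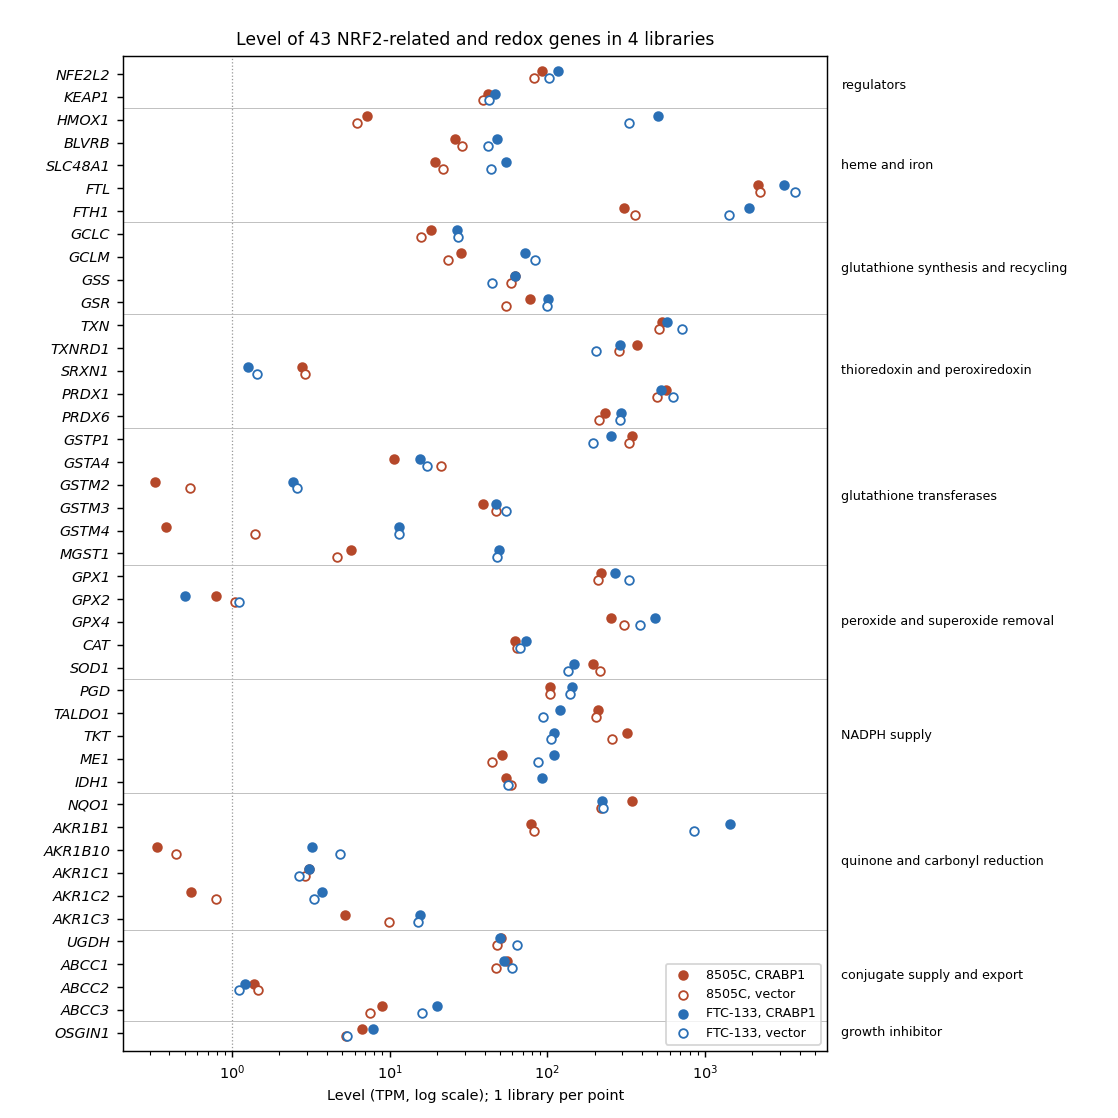
Level of each of the 43 members (TPM, log axis) in the 4 libraries, grouped by role; 8505C is red and FTC-133 blue, filled points are CRABP1 libraries and open points vector libraries. The widest gap between the lines is that of HMOX1, at 7.20 and 6.24 TPM in 8505C and 502 and 328 TPM in FTC-133.

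CRABP1 overexpression went with differences of less than 2-fold in the members averaging 1 TPM or more; whether the lines differ in them was not tested. In 8505C, NQO1, a quinone reductase used as the standard NRF2 reporter gene, was 1.57-fold higher, GSR, which regenerates reduced glutathione, 1.41-fold higher, and GSTA4 1.99-fold lower. In FTC-133, AKR1B1, the aldose reductase, was 1.69-fold higher, IDH1, a cytosolic NADPH source, 1.66-fold higher and HMOX1, the inducible heme oxygenase, 1.53-fold higher. Only TXNRD1, the cytosolic thioredoxin reductase, had an interval above 1.2-fold in both lines.

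On log2 of TPM plus 1, none of the 38 members averaging 1 TPM or more in 8505C and none of the 42 in FTC-133 passed 2-fold, against 7.77% of 17561 and 10.9% of 19899 genes. Restricted to coding genes backed by 20 reads or more, the shares were 0.741% and 3.52%. At 1.5-fold 1 member was higher in 8505C, NQO1 (7.39% of all genes), and 2 were lower, GSTA4 and AKR1C3 (7.64%), 3 in all against 15.0% of all genes and 3.81% of the coding genes. In FTC-133 AKR1B1, IDH1 and HMOX1 were higher by that rule (13.1% of all genes) and 0 members lower (9.69%), 3 in all against 22.7% of all genes and 11.5% of the coding genes. The median log2 ratio of the members was 0.06 in 8505C, against 0.02 over all genes, and 0.07 in FTC-133, against 0.06 over all genes. In 8505C 24 of the 38 were above 0 (54.7% of all genes and 54.8% of the coding genes) and 14 below (45.3%). In FTC-133 28 of the 42 were above 0 (57.8% of all genes and 58.1% of the coding genes) and 14 below (42.2%). The number above 0 was 21 with median-ratio scaling (49.5% of all genes) and 22 without the mitochondrially encoded genes (50.6% of all genes). The share of the TPM held by mitochondrially encoded genes was 25.9% with CRABP1 and 28.6% with vector in that line. Among the coding genes, the counting interval excluded 1 for 21 of 37 members in 8505C, 14 higher and 7 lower, against 39.4% of 12010 genes (23.3% higher and 16.0% lower). In FTC-133 it did so for 24 of 41 members, 17 higher and 7 lower, against 56.0% of 12767 genes (33.9% higher and 22.0% lower). These intervals narrow with depth, and the members had a median of 2525 reads over both 8505C libraries, against 1122 for the genes, and of 3549 over both FTC-133 libraries, against 1224. GPX1 is not among these members, because GENCODE 29 lists it as a polymorphic pseudogene. The intervals excluded 1 on the same side in both lines for 7 of 37 members, against 13.5% of 11447 genes. NFE2L2, GSS, TXNRD1, TKT, ME1 and ABCC3 were higher with CRABP1 and GSTM3 was lower. These intervals were computed on the deposited scaling only. With median-ratio scaling the log2 ratio of TKT in FTC-133 fell below 0.

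Over both lines, limma with cell line and transfection as terms called 0 of 42 members for CRABP1 over vector, against 0.00512% of the 19513 genes tested, the single call being CRABP1. That fit has 1 residual degree of freedom. Of the 42 members, 28 had a difference above 0 (57.4% of genes). The smallest adjusted p of a member by limma was 0.920, and 1 member, TXNRD1, had an unadjusted p under 0.05, against 4.73% of all genes. Of 38 members measured in both lines, 16 were above 0 in both (32.5% of genes), 4 below 0 in both (19.4%), 8 higher in 8505C and lower in FTC-133 (22.2%) and 10 lower in 8505C and higher in FTC-133 (25.9%).

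**Figure D2:**
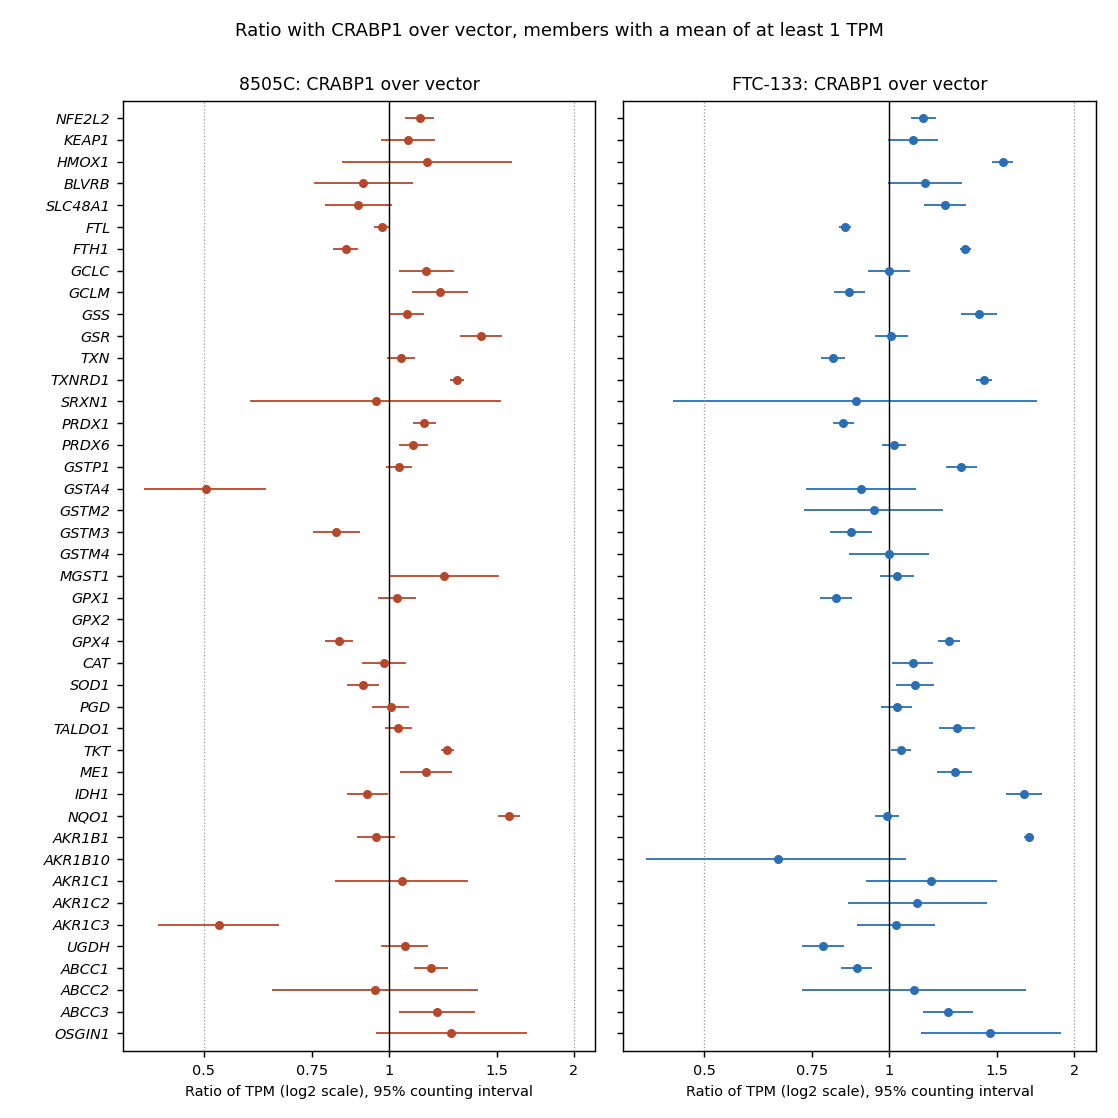
Ratio of TPM with CRABP1 over vector for each member averaging 1 TPM or more, in 8505C (left) and FTC-133 (right); the axis is on a log2 scale, bars are 95% counting intervals and dotted lines mark 2-fold. NQO1 (1.57) and GSR (1.41) lie to the right in 8505C and near 1 in FTC-133, whereas AKR1B1 (1.69) and IDH1 (1.66) lie to the right in FTC-133 and slightly left of 1 in 8505C.

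Between the lines, HMOX1, AKR1B1 and the microsomal glutathione transferase MGST1 had the largest called differences and were lower in 8505C than in FTC-133, while the pentose phosphate enzyme TKT was higher in 8505C. By limma, at an adjusted p under 0.05 and at least 2-fold, 1 of 42 members was higher in 8505C and 11 were lower, 12 in all, against 23.6% of 19513 genes called (7.99% higher and 15.6% lower). Of the 42 members 10 were above 0 (40.3% of genes). In both matched pairs of libraries 10 members were at least 2-fold lower (16.0% of genes) and 1 was at least 2-fold higher (7.65%) in 8505C. The median log2 difference was -0.36 for the members and -0.19 for all genes. Median-ratio scaling brought the median of all genes to -0.03 and that of the members to -0.19, with 11 members called (22.9% of genes), 10 of them among the 12; ABCC3 and ME1 were lost and TALDO1 was gained. Each line is represented by libraries that differ in transfection, and the p-values reflect how far apart these 4 libraries lie and nothing wider. In bulk RNA, fewer cells of a kind and less RNA per cell cannot be told apart. Without 1 of the FTC-133 libraries the fit called 6 members (without CRABP1) or 5 (without vector), and without either 8505C library it called 0 members and 0 of all genes (smallest adjusted p by limma 0.0619 and 0.0648); each such fit assumes that the lone library varies like the pair.

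**Figure D3:**
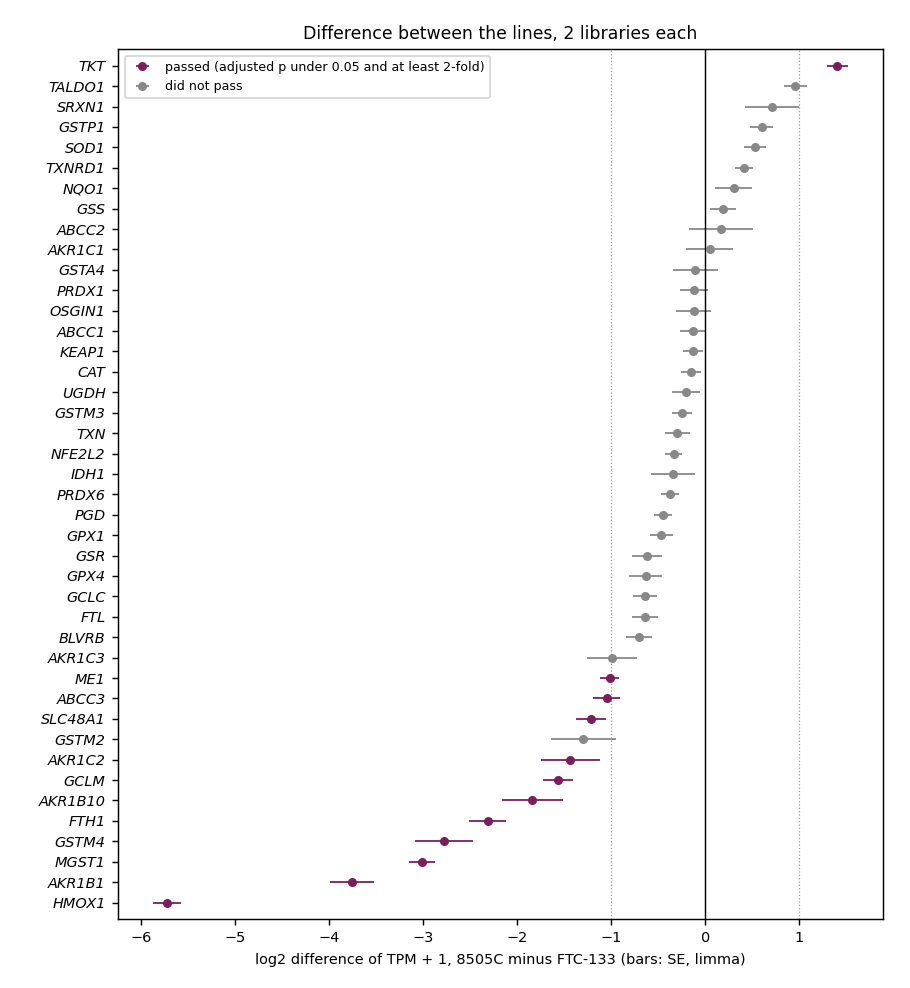
log2 difference of TPM + 1 between 8505C and FTC-133 for 42 members, sorted; bars are the standard error from limma and coloured points passed an adjusted p under 0.05 and 2-fold (dotted lines). HMOX1 (-5.72) and AKR1B1 (-3.76) lie farthest to the left and TKT (1.41) farthest to the right.

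The regulators differed little. NFE2L2 (ENSG00000116044; chromosome 2, 177227595 to 177392697, minus strand, GENCODE 29 on GRCh38) was at 92.0 TPM with CRABP1 and 81.8 TPM with vector in 8505C, and at 117 and 103 TPM in FTC-133. The ratio was 1.12 (1.06 to 1.19) in 8505C and 1.14 (1.08 to 1.19) in FTC-133, so that both CRABP1 libraries lay above their vector library. Of the exon bases of NFE2L2, 17.6% are shared with AC019080.1 on the same strand and 4.1% with AC079305.1 and AGPS on the opposite strand, and the part of this overlap in the ratios was not tested. KEAP1, the adaptor that presents NRF2 for ubiquitination (chromosome 19, 10486120 to 10503741, minus strand), was at 41.9 and 39.0 TPM in 8505C and at 46.4 and 42.5 TPM in FTC-133, with ratios of 1.08 (0.972 to 1.19) and 1.09 (0.995 to 1.20). Both intervals of KEAP1 included 1. Between the lines, NFE2L2 was 0.34 lower in 8505C on the log2 scale (adjusted p = 0.0633 by limma) and did not pass.

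HMOX1, which opens the heme ring and releases iron, carbon monoxide and biliverdin, showed the widest contrast (ENSG00000100292; chromosome 22, 35380361 to 35394214, plus strand). It was at 7.20 and 6.24 TPM in 8505C with CRABP1 and with vector, from about 88 and 76 reads, and at 502 and 328 TPM in FTC-133, from about 6365 and 4292 reads. The 8505C level was 69.6-fold lower (56.4 to 86.9) between the CRABP1 libraries and 52.5-fold lower (41.9 to 66.8) between the vector libraries. By limma the log2 difference was -5.72 (SE 0.15, adjusted p = 0.00336), lower in both pairs. Within FTC-133 the ratio of CRABP1 over vector was 1.53 (1.47 to 1.59), and in 8505C 1.15 (0.839 to 1.59), an interval that includes 1 at this depth.

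The other heme and iron genes shared the direction between the lines. SLC48A1, a heme transporter, was at 19.4 and 21.8 TPM in 8505C and 54.4 and 44.1 TPM in FTC-133, a log2 difference of -1.21 (SE 0.16, adjusted p = 0.0157 by limma). BLVRB, a biliverdin reductase, was at 26.0 and 28.6 TPM in 8505C and 48.2 and 42.2 TPM in FTC-133, short of 2-fold. All 5 heme and iron members were below 0 between the lines (59.7% of all genes) and 3 of them were called lower (15.6% of all genes), also with median-ratio scaling; FTL and BLVRB were not called.

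Ferritin stores iron in a shell of heavy chains, which oxidise it, and light chains. FTH1, the heavy chain, was at 306 and 359 TPM in 8505C with CRABP1 and with vector and at 1903 and 1430 TPM in FTC-133, a log2 difference between the lines of -2.31 (SE 0.20, adjusted p = 0.00798 by limma). FTL was at 2179 and 2236 TPM in 8505C and at 3171 and 3746 TPM in FTC-133. The TPM of FTH1 over that of FTL was 0.140 and 0.161 in 8505C and 0.600 and 0.382 in FTC-133. With CRABP1 the 2 chains parted in FTC-133: FTH1 was 1.33-fold higher (1.30 to 1.36) and FTL 1.18-fold lower (1.16 to 1.21). In 8505C FTH1 was 1.18-fold lower (1.12 to 1.23) and FTL 1.03-fold lower (0.998 to 1.06). Of the exon bases of FTH1, 62.4% overlap BEST1 on the opposite strand, and the strand setting of the counting is not given in the sources used here.

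Glutathione is made by glutamate-cysteine ligase, whose catalytic subunit is GCLC and modifier subunit GCLM, and then by the synthase GSS. GCLM was at 28.2 and 23.3 TPM in 8505C with CRABP1 and with vector and at 72.3 and 83.9 TPM in FTC-133, the 8505C values being the lower ones. The difference between the lines was -1.57 on the log2 scale (SE 0.16, adjusted p = 0.0106 by limma). GCLC was at 18.2 and 15.8 TPM in 8505C and 26.9 and 27.0 TPM in FTC-133, so the TPM of GCLM over that of GCLC was 1.55 and 1.47 in 8505C and 2.68 and 3.11 in FTC-133. With CRABP1 both subunits were higher in 8505C, GCLM 1.21-fold (1.09 to 1.35) and GCLC 1.15-fold (1.04 to 1.28). In FTC-133 GCLM was 1.16-fold lower (1.09 to 1.23) and the ratio of GCLC was 0.998 (0.922 to 1.08).

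GSS and GSR were higher with CRABP1 in 8505C. GSS was at 62.7 and 58.6 TPM in 8505C with CRABP1 and with vector and at 62.7 and 44.8 TPM in FTC-133, a ratio of 1.07 (1.003 to 1.14) in 8505C and of 1.40 (1.31 to 1.495) in FTC-133. GSR, the reductase that returns oxidised glutathione to its reduced form at the cost of NADPH, was at 77.5 and 54.8 TPM in 8505C, a ratio of 1.41 (1.31 to 1.53). In FTC-133 GSR was at 101 and 100.2 TPM. All 4 glutathione synthesis and recycling members were above 0 in 8505C under every scaling tried, against 49.3% to 54.7% of all genes. In FTC-133 2 of 4 were, against 57.8% of all genes. With median-ratio scaling (49.5% of all genes) or without mitochondrially encoded genes (50.6%), 1 of 4 was above 0 there.

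The thioredoxin system passes electrons from NADPH through TXNRD1 to thioredoxin, TXN, and on to peroxiredoxins. TXNRD1 was at 369 and 286 TPM in 8505C with CRABP1 and with vector and at 291 and 204 TPM in FTC-133. The ratios were 1.29 (1.26 to 1.33) and 1.42 (1.38 to 1.47), and the mean log2 ratio over both lines was 0.44 (SE 0.10, adjusted p = 0.920 by limma), which did not pass. Its substrate TXN was at 535 and 511 TPM in 8505C and at 577 and 713 TPM in FTC-133, 1.24-fold lower with CRABP1 in FTC-133 (1.18 to 1.29). PRDX1, a peroxiredoxin, was at 565 and 494 TPM in 8505C and 528 and 627 TPM in FTC-133, 1.14-fold higher with CRABP1 in 8505C (1.09 to 1.19) and 1.19-fold lower in FTC-133 (1.14 to 1.24); 24.9% of its exon bases overlap MMACHC on the opposite strand. PRDX6 differed by less: it was at 234 and 213 TPM in 8505C and 293 and 288 TPM in FTC-133. SRXN1, which repairs overoxidised peroxiredoxins, was listed at 2.78 and 2.91 TPM in 8505C and at 1.26 and 1.43 TPM in FTC-133, from 18 to 40 reads. Since 85.0% of its exon bases are shared with another annotated gene on the same strand, AL121758.1, its level is uncertain.

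Glutathione transferases attach glutathione to electrophiles. GSTP1, the pi class enzyme, was the most abundant at 344 and 331 TPM in 8505C with CRABP1 and with vector and at 255 and 194 TPM in FTC-133, 1.31-fold higher with CRABP1 in FTC-133 (1.24 to 1.39). GSTA4, which acts on the lipid peroxidation product 4-hydroxynonenal, was at 10.7 and 21.2 TPM in 8505C, 1.99-fold lower with CRABP1 (1.58 to 2.50), from about 118 and 235 reads. In FTC-133 it was at 15.5 and 17.2 TPM. The vector library of 8505C thus held the highest of the 4 values and its CRABP1 library the lowest.

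Of the microsomal enzyme and the 3 mu class members, MGST1 and GSTM4 were called between the lines, and GSTM2 and GSTM3 were not (adjusted p = 0.0594 and 0.144 by limma). MGST1 was at 5.70 and 4.62 TPM in 8505C and at 49.2 and 47.7 TPM in FTC-133 (CRABP1 and vector), a log2 difference of -3.01 (SE 0.14, adjusted p = 0.00395 by limma). GSTM4 was at 0.379 and 1.41 TPM in 8505C and at 11.5 TPM in both FTC-133 libraries, a log2 difference of -2.78 (SE 0.31, adjusted p = 0.0117 by limma). The 8505C values of GSTM4 rest on about 11 and 41 reads, and the ratio, 3.72-fold lower with CRABP1 (1.88 to 8.02), comes from a gene with a mean under 1 TPM there. GSTM3 was at 38.9 and 47.3 TPM in 8505C and 47.5 and 54.8 TPM in FTC-133, lower with CRABP1 in both, by 1.22-fold (1.12 to 1.33) and 1.15-fold (1.07 to 1.25). GSTM2 was at 0.324 and 0.539 TPM in 8505C and 2.43 and 2.58 TPM in FTC-133. GSTM2 and GSTM4 are close copies of each other and of GSTM1, so that the split of reads among them is uncertain. On the same strand, 10.2% of the exon bases of GSTM2 are shared with GSTM1 and GSTM4, and 6.5% of those of GSTM4 with GSTM2. GSTM3 shares 0.0% on its own strand.

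Peroxide-removing enzymes and superoxide dismutase varied within about 1.25-fold with CRABP1. GPX4, the peroxidase that protects membrane lipids and blocks ferroptosis, was at 253 and 306 TPM in 8505C with CRABP1 and with vector and at 484 and 387 TPM in FTC-133: 1.21-fold lower (1.15 to 1.27) in 8505C and 1.25-fold higher (1.20 to 1.30) in FTC-133. GPX1, the cytosolic peroxidase, was at 218 and 211 TPM in 8505C and 268 and 328 TPM in FTC-133, 1.22-fold lower in FTC-133 (1.15 to 1.29). SOD1 was at 196 and 216 TPM in 8505C and 149 and 135 TPM in FTC-133. Catalase, CAT, was at 62.8 and 64.0 TPM in 8505C and 73.7 and 67.4 TPM in FTC-133. GPX2, an intestinal peroxidase, had between 4 and 9 reads in each library, too few for a ratio.

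The 5 enzymes listed for NADPH supply all had a log2 ratio above 0 in FTC-133, against 57.8% of all genes. The number was 3 with median-ratio scaling (49.5% of all genes) and 4 without mitochondrially encoded genes (50.6% of all genes). Their median log2 ratio was 0.35 as deposited, against 0.06 for all genes. IDH1 was at 54.7 and 59.2 TPM in 8505C with CRABP1 and with vector and at 93.1 and 56.2 TPM in FTC-133, so that FTC-133 with CRABP1 stood apart from the other 3 libraries at 1.66-fold over its vector (1.55 to 1.77). TALDO1, of the pentose phosphate pathway, was at 210 and 203 TPM in 8505C and 120 and 93.3 TPM in FTC-133, 1.29-fold higher with CRABP1 in FTC-133 (1.20 to 1.38). ME1, the cytosolic malic enzyme, was at 51.5 and 44.8 TPM in 8505C and at 111 and 86.9 TPM in FTC-133, with ratios of 1.15 (1.04 to 1.27) and 1.28 (1.20 to 1.37). The log2 difference of ME1 between the lines was -1.02 (SE 0.10, adjusted p = 0.0105 by limma), and with median-ratio scaling -0.85, short of 2-fold.

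Transketolase, TKT, links the pentose phosphate pathway to glycolysis and was the 1 member called higher in 8505C. It was at 321 and 257 TPM in 8505C with CRABP1 and with vector and at 110 and 106 TPM in FTC-133, a log2 difference of 1.41 (SE 0.11, adjusted p = 0.00747 by limma). Its ratio of CRABP1 over vector was 1.25 (1.22 to 1.28) in 8505C and 1.04 (1.006 to 1.08) in FTC-133. With median-ratio scaling the log2 ratio of TKT in FTC-133 fell below 0. TALDO1 pointed the same way between the lines at 0.96, just short of 2-fold. PGD, which makes NADPH in that pathway, was at 104 TPM in both 8505C libraries and at 144 and 140 TPM in FTC-133.

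NQO1 (ENSG00000181019; chromosome 16, 69706996 to 69726951, minus strand) was at 346 TPM in 8505C with CRABP1, against 221 TPM with vector, and at 223 and 225 TPM in FTC-133. In 8505C the ratio was 1.57 (1.504 to 1.63), from about 5711 and 3654 reads. The other 3 libraries lay between 221 and 225 TPM, and 17.7% of the exon bases of NQO1 overlap AC092115.2 on the opposite strand.

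Aldo-keto reductases turn aldehydes and ketones into alcohols. AKR1B1 (ENSG00000085662; chromosome 7, 134442350 to 134459284, minus strand) was at 78.8 and 82.6 TPM in 8505C with CRABP1 and with vector and at 1434 and 849.6 TPM in FTC-133, the highest level of any member there after the ferritin chains. Its ratio in FTC-133 was 1.69 (1.66 to 1.72), and in 8505C it was 1.05-fold lower (0.975 to 1.13). The lines differed by -3.76 on the log2 scale (SE 0.23, adjusted p = 0.00539 by limma). AKR1B10, a close relative and NRF2 target, was at 0.334 and 0.443 TPM in 8505C, from 3 and 4 reads, and at 3.21 and 4.87 TPM in FTC-133.

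AKR1C enzymes reduce steroids and prostaglandins and are NRF2 targets in many human cells. Here they were low: AKR1C1, AKR1C2 and AKR1C3 together reached 8.85 and 13.6 TPM in 8505C and 22.4 and 21.2 TPM in FTC-133. AKR1C3 was at 5.24 and 9.90 TPM in 8505C, 1.89-fold lower with CRABP1 (1.51 to 2.37), and at 15.6 and 15.2 TPM in FTC-133. AKR1C2 was at 0.549 and 0.791 TPM in 8505C and 3.70 and 3.33 TPM in FTC-133, and the line difference of -1.44 passed (SE 0.31, adjusted p = 0.0406 by limma). AKR1C1 lay between 2.64 and 3.09 TPM in all 4 libraries. The AKR1C genes are near-identical copies, and the split of reads among them is uncertain.

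Of the 4 genes for conjugate supply and export, ABCC3 was called between the lines. UGDH, which makes the sugar donor for glucuronidation, was at 50.6 and 47.7 TPM in 8505C with CRABP1 and with vector and at 50.2 and 64.3 TPM in FTC-133, 1.28-fold lower in FTC-133 (1.18 to 1.39). ABCC1, an exporter of glutathione conjugates, was at 55.4 and 47.2 TPM in 8505C and 52.8 and 59.6 TPM in FTC-133. ABCC3, another conjugate exporter, was at 8.94 and 7.46 TPM in 8505C and 20.04 and 16.1 TPM in FTC-133, higher with CRABP1 in both, by 1.20-fold (1.04 to 1.38) and 1.25-fold (1.14 to 1.37). Its line difference of -1.05 passed (SE 0.14, adjusted p = 0.0166 by limma) but was -0.89 and short of 2-fold with median-ratio scaling. ABCC2 stayed between 1.10 and 1.45 TPM in the 4 libraries. OSGIN1, an oxidative stress-induced growth inhibitor, was at 6.64 and 5.25 TPM in 8505C and 7.87 and 5.39 TPM in FTC-133, with a ratio of 1.46 (1.12 to 1.90) in FTC-133.

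Of 98 further pathway genes listed for comparison, 97 were matched by symbol; 80 in 8505C and 82 in FTC-133 averaged 1 TPM or more. The median log2 ratio was 0.03 in 8505C, against 0.02 over all genes, and 0.13 in FTC-133, against 0.06 over all genes. In 8505C 42 of 80 were above 0 (54.7% of all genes). In FTC-133 57 of 82 were above 0 (57.8% of all genes), and 47 with median-ratio scaling (49.5% of all genes). In 8505C 3 of these pathway genes were higher with CRABP1 by 2-fold and 1 lower, against 3.70% and 4.07% of all genes. In FTC-133 3 were higher and 0 lower, against 6.02% and 4.92%. All of those past 2-fold had at least 20 reads. Among coding genes backed by 20 reads or more, 0.741% passed 2-fold in either direction in 8505C and 3.52% in FTC-133. The 3 higher ones in 8505C are known to be induced by the stress factor ATF4 as well: SLC7A11, the cystine transporter, was at 49.2 and 13.6 TPM, CHAC1, which degrades glutathione, at 19.0 and 1.44 TPM, and SESN2, a stress-induced regulator of growth signalling, at 15.8 and 6.42 TPM. GGT5, a glutathione-cleaving surface enzyme, was the lower one at 3.71 and 8.73 TPM. The log2 ratios of SLC7A11, CHAC1 and SESN2 were 1.78, 3.04 and 1.18 in 8505C, and their means over both lines by limma were 1.15, 1.60 and 0.92. SLC7A11, CHAC1 and SESN2 were thus also higher with CRABP1 in FTC-133, though short of 2-fold. Each was higher by less than in 8505C, and CHAC1 by the least. Between the lines all 3 were lower in 8505C, with log2 differences of -1.83, -2.95 and -2.79 by limma, and CHAC1 was not called. SLC3A2, the partner chain of SLC7A11, was at 89.0 and 52.8 TPM in 8505C and at 157 and 101 TPM in FTC-133, with ratios of 1.69 (1.58 to 1.80) and 1.56 (1.48 to 1.63).

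In FTC-133 the genes past 2-fold were 2 of the 12 listed partners and regulators of NRF2, and GSTT2B, whose 35 and 11 reads are uncertain because it has a near-identical copy, GSTT2. NFE2L3, a relative of NRF2, was at 50.0 TPM with CRABP1 and 16.3 TPM with vector, a ratio of 3.06 (2.72 to 3.44), and MAFF, a small MAF protein, at 23.6 and 10.9 TPM, a ratio of 2.16 (1.89 to 2.46). BACH1, a repressor of HMOX1, was at 50.6 and 36.9 TPM in FTC-133, 1.37-fold higher (1.28 to 1.47), and at 54.0 and 70.9 TPM in 8505C, 1.31-fold lower (1.24 to 1.39). SQSTM1, an autophagy receptor that binds KEAP1, was at 278 and 174 TPM in FTC-133, a ratio of 1.603 (1.56 to 1.65), and at 105 and 109 TPM in 8505C. By limma 0 of the 85 pathway genes tested passed for CRABP1 over vector (smallest adjusted p = 0.920).

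**Figure D4:**
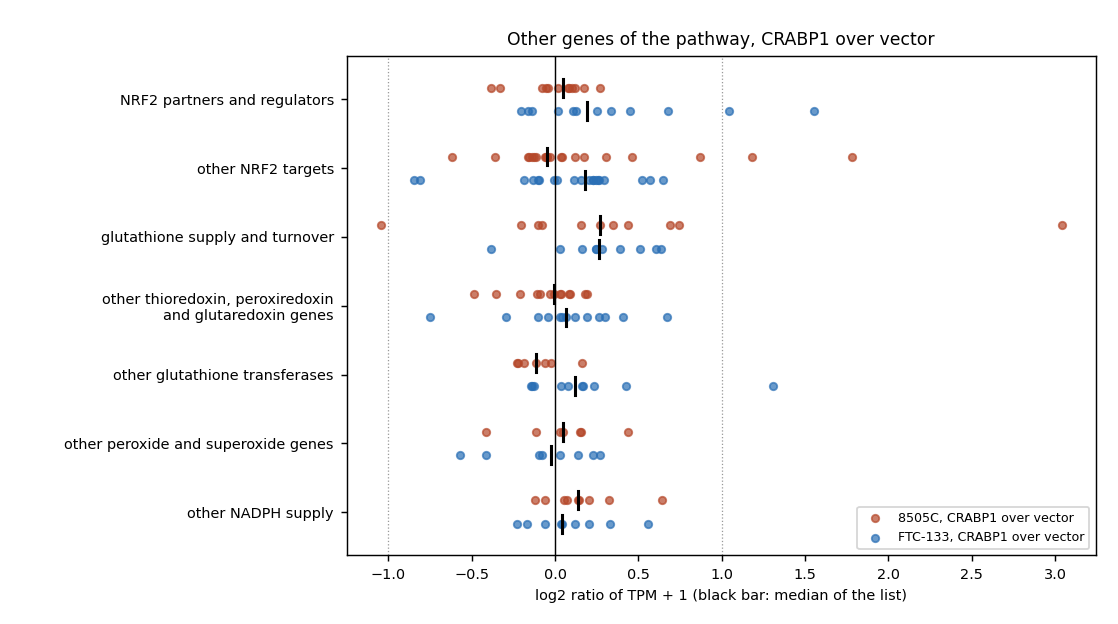
log2 ratio of TPM + 1 with CRABP1 over vector for the pathway genes outside the members, by list, in 8505C (upper row of each pair) and FTC-133 (lower row); black bars are list medians and dotted lines mark 2-fold. CHAC1 (3.04) and SLC7A11 (1.78) stand out in 8505C, and NFE2L3 (1.56) and MAFF (1.04) in FTC-133.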

How the data were processed

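The authors deposited 1 table of TPM values for 58884 genes in 4 libraries. The submitters' processing notes name the build GRCh38 and the tools featureCounts 2.0.0, Trimmomatic 0.38 and FastQC; no source used here gives the aligner, annotation or strand setting. When TPM was multiplied by each gene's summed GENCODE 29 exon length (58611 identifiers), values fell on whole multiples of a step per library: 90.5% to 91.6% of values of up to 50 reads lay within 0.02 of a whole read, and 74.1% to 75.8% of all values did. These recovered reads gave the intervals and floors of 3 reads, which cover counting error only. Where the length differs from the authors', reads are approximate.

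Ratios are log2 of TPM plus 1, which understates low genes, for genes averaging 1 TPM or more; folds with an interval are plain TPM ratios. Limma, using a mean-variance trend, was run on every gene kept, with terms for line and transfection. Benjamini-Hochberg adjustment was at 0.05, two-sided. The fit was also run on simulated libraries that shared a common mean per gene, apart from 200 genes changed on purpose. That simulation cannot show how the fit behaves where the lines differ widely. The p-values of limma measure the spread between these libraries, which may be technical. Members, lists and tests were chosen with earlier results of these data known. Values in every library were set for 8 core members, for those with a log2 ratio of at least 0.5 or a line difference of at least 2, and extended to nearly all others after their values were seen; of the pathway lists, SLC7A11, BACH1, SQSTM1, CHAC1, a further gene that is not reported here and genes past 2-fold with at least 20 reads were set, and SLC3A2 was added after its values were seen. Alternatives were a pseudocount of 0.1, no filter, 5 TPM, median-ratio scaling, removal of mitochondrial genes, no trend, fewer terms, left-out libraries and a 1.5-fold rule; a restriction to protein-coding genes with at least 20 reads was chosen after seeing the data. Symbols came from a gene name table (58472 identifiers); 1 pathway gene, SOD2, had no match and was not used. Promoter windows came from RefSeq, GRCh38.p14. Python 3.11.15, pandas 2.3.3, NumPy 2.4.6, SciPy 1.17.1, R 4.3.3 and limma 3.58.1 were used.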

Additional observations from a re-analysis of the deposited data

Results flagged for a closer look

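With 1 library per group, a difference between the lines in their response to CRABP1 could not be tested. It is listed here where the counting intervals of both lines excluded 1 on opposite sides, which happened for 7 of the 43 members. Among coding genes backed by 20 reads or more in both lines, it happened for the same number of 37 members and for 12.0% of 11447 genes. Values are log2 ratios of TPM + 1 in 8505C and FTC-133, followed by the first minus the second. IDH1 had -0.11 and 0.72 (-0.83), FTH1 -0.23 and 0.41 (-0.64), GPX4 -0.27 and 0.32 (-0.59) and SOD1 -0.14 and 0.14 (-0.28). In the other direction, GCLM had 0.27 and -0.21 (0.48), PRDX1 0.19 and -0.25 (0.44) and ABCC1 0.23 and -0.17 (0.40). All 7 kept both directions with median-ratio scaling and without the mitochondrially encoded genes. The intervals were not computed again under these scalings, so whether all 7 would still meet the rule was not tested.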

How the results depend on the processing

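The count of members past 2-fold stayed at 0 in both lines under every alternative except the 1.5-fold rule, where it was 3 in each. With median-ratio scaling the members' median log2 ratio was 0.017 in FTC-133 and 0.040 in 8505C, and without mitochondrially encoded genes 0.010 in FTC-133, where the filter was applied again after removal; over the original 42 members it was 0.030. For CRABP1 over vector by limma, 0 members passed in every alternative. The term for cell line pairs the libraries within a line, and the fit with no replicate block, that is without this term, also called 0. Between the lines, the members called numbered 0 with no filter on low values, where 58884 genes were tested and 0 passed, and from 0 to 6 when 1 library was left out. For the 12 called members the direction was kept in every alternative that tested them. At this depth the ratios of SRXN1, GPX2, GSTM2, GSTM4, AKR1B10, AKR1C2 and ABCC2 rest on at most 50 reads in at least 1 library, and each line and transfection has 1 library.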

Other observations

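Other antioxidant genes outside the members also differed between the lines. GPX3, the secreted glutathione peroxidase, was at 3.62 and 5.16 TPM in 8505C with CRABP1 and with vector and at 80.2 and 72.7 TPM in FTC-133, a log2 difference of -3.86 (SE 0.19, adjusted p = 0.00423 by limma). SOD3, the extracellular superoxide dismutase, was at 0.0977 and 0.195 TPM in 8505C and 17.7 and 24.0 TPM in FTC-133 (-4.24, adjusted p = 0.00469 by limma). CTH, which makes cysteine from cystathionine, was at 6.45 and 7.57 TPM in 8505C and 50.8 and 66.7 TPM in FTC-133. AIFM2, a ferroptosis suppressor that reduces coenzyme Q, was higher in 8505C at 8.91 and 8.58 TPM, against 0.369 and 0.608 TPM in FTC-133 (2.71, adjusted p = 0.00952 by limma). GSTM1 was listed at 0 in both 8505C libraries, which allows up to 0.235 TPM, and at 17.2 and 16.7 TPM in FTC-133. These genes were chosen after their values were seen, from the 25 of 85 pathway genes that limma called between the lines, 6 higher and 19 lower in 8505C, against 23.6% of all genes called, 7.99% higher and 15.6% lower.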
